A study of Mus musculus with 67 samples.

Results

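The genes described are the Wnt ligands, their receptors, the secreted inhibitors and the pathway's own components and targets in RNA-seq of mouse forelimb buds. They were taken by a rule on gene names, set with earlier results of these data known. The name rule took 65 of the 46983 gene IDs in each table: 19 ligands, 2 secretion factors, 12 receptors, 9 genes of the R-spondin branch, 12 secreted inhibitors, 7 intracellular components and 4 nuclear factors. Whole forelimb buds were collected at E9.25 (21–23 S), before HH signaling begins, from WT (n = 3) and *Gli3-/-* (n = 4) embryos. Anterior forelimb buds were collected at E10.5 (32–35 S), after HH induction, from WT (n = 4) and *Gli3-/-* (n = 3) embryos. The WT embryos were Swiss Webster, and *Gli3-/-* embryos carried the constitutive *Gli3Xt-J* allele, kept on that background, so that *Gli3* was lost from every tissue of the embryo and not from the limb alone. By the sample labels, each library pooled about 4 pairs of buds at E9.25 or 2 pairs at E10.5, while the paper's methods give about 4 pairs at both stages. The labels give neither litter nor sex. P-values therefore measure the spread between pools, which may be partly technical.

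Wnt proteins are secreted, lipid-modified signals. They are acylated by *Porcn*, carried to the cell surface by *Wls*, and bound by Frizzled receptors, with *Lrp5* or *Lrp6* as co-receptor for the branch that stabilizes beta-catenin. Stabilized beta-catenin enters the nucleus and works with the TCF/LEF factors, and genes such as *Axin2*, *Lef1* and *Nkd1* are known targets that feed back on the pathway. R-spondins bind Lgr receptors and spare Frizzleds from the ubiquitin ligases *Znrf3* and *Rnf43*, while Dkk, Sfrp, *Wif1* and *Notum* act outside the cell against the signal. In the limb bud, Wnt signals from the ectoderm keep the underlying mesenchyme proliferating and undifferentiated, and *Wnt5a* in the mesenchyme directs outgrowth through the branch that does not use beta-catenin.

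Values are the deposited TPM, in which reads per transcript length add up to an equal sum in every library. Libraries held an estimated 38.1 to 56.8 M reads, and a TPM of 1 corresponded to 20.7 to 29.3 reads per kilobase, so that counting error is large for members near that level. Differences are given as log2(TPM + 1) ± standard error from limma's moderated test, which understates changes of low genes. A gene was tested where 3 or more of the libraries being compared had a TPM of 1 or above, and a member is said to rise or fall only at a Benjamini-Hochberg adjusted p under 0.05 over all genes tested. Of the 65 members, 53 reached a TPM of 1 in at least 3 of the 14 libraries, and 7 stayed below 1 in every library. No member was listed at 0 in all 14.

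Before the comparisons, the libraries were compared with their labels. *Gli3* was 44.2, 15.8 and 44.6 TPM in E9.25 WT and 14.3 to 20.8 TPM in E9.25 *Gli3-/-* libraries. At E10.5 it was 73.4 to 89.7 TPM in WT and 38.7 to 40.9 TPM in *Gli3-/-*. The table counts reads over the whole gene, including any part that the allele retains. WT replicate 2 at E9.25 thus lay within the *Gli3-/-* range for *Gli3* and was the shallowest of the 14 libraries, with the fewest genes at a TPM of at least 1. Without it, calls among members went from 34 to 29 between the stages in WT, stayed at 0 between genotypes at E9.25 and numbered 7 in the interaction, 6 of them shared. Limb mesenchyme markers (*Prrx1*, *Tbx5*, *Pdgfra*, *Twist1*, *Fgf10* and *Msx1*) summed to 571 to 958 TPM in the 14 libraries, and the 6 neural tube markers to 2.77 to 15.5 TPM. The 6 markers of lateral plate and flank, the tissue next to the bud, summed to 24.3 to 59.4 TPM in E9.25 WT and 73.8 to 205 TPM in E9.25 *Gli3-/-*, with no overlap. They summed to 33.97 to 55.7 TPM in E10.5 WT and 25.6 to 39.3 TPM in E10.5 *Gli3-/-*, nearly all of it *Tbx18*, which was 32.6 to 52.8 TPM in E10.5 WT, while *Gata4* and *Foxf1* were below 1 in every E10.5 library. The 6 blood markers summed to 38221 TPM in E10.5 *Gli3-/-* replicate 3 and to 13550 and 15051 TPM in its other replicates.

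**Figure D1:**
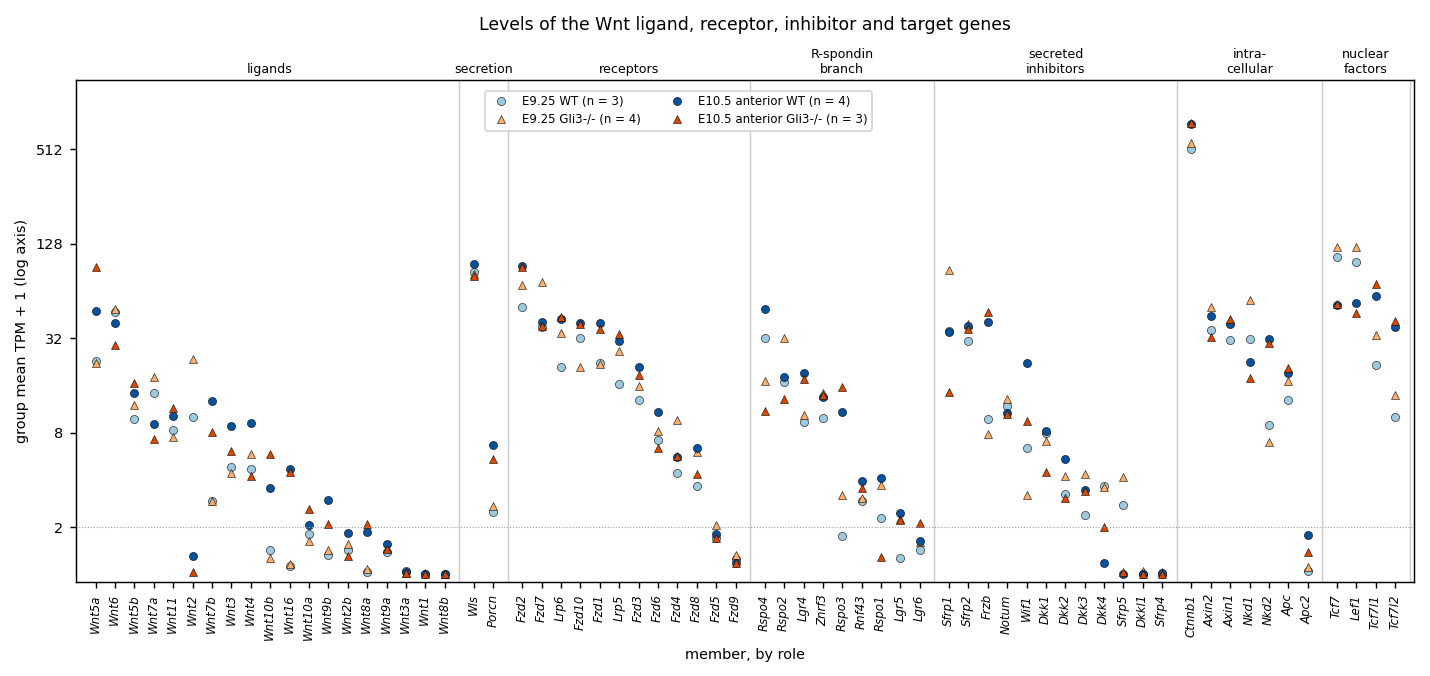
Group mean TPM + 1 (vertical axis, log scale; the dotted line marks a TPM of 1) of all 65 members, grouped by role and ordered by level within a role. Circles are WT and triangles *Gli3-/-*, pale at E9.25 and dark at E10.5; *Ctnnb1* lies above all others, with 514 to 753 TPM, and *Wnt1*, *Wnt3a*, *Wnt8b*, *Dkkl1* and *Sfrp4* lie near 0.

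By level, a few members made up most of each role. *Ctnnb1*, which encodes beta-catenin, had the highest mean of any member in all groups, from 514 ± 88.0 TPM (SD, n = 3) in E9.25 WT to 753 ± 5.56 TPM (SD, n = 3) in E10.5 *Gli3-/-*. *Wls*, the carrier of Wnt proteins, was 69.9 to 106 TPM in the 14 libraries and was called in no comparison. *Fzd2* led the receptors in E9.25 WT and in both E10.5 groups, at 49.6 TPM in E9.25 WT and 91.4 TPM in E10.5 WT. *Sfrp2*, a secreted Frizzled-like protein, was 22.2 to 46.8 TPM in the 14 libraries and was also called in no comparison. Its genotype difference at E10.5 was -0.08 ± 0.15.

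The ligands changed order between the stages. *Wnt6*, an ectodermal ligand of the limb bud, was the highest at E9.25, with 46.0 TPM in WT and 47.7 TPM in *Gli3-/-*. *Wnt5a* was the highest at E10.5, with 46.6 TPM in WT and 89.9 TPM in *Gli3-/-*. As a share of the summed TPM of all 19 ligands, *Wnt5a* held 18.1% ± 3.70 (SD, n = 3) in E9.25 WT, 15.1% ± 2.30 (n = 4) in E9.25 *Gli3-/-*, 30.0% ± 3.42 (n = 4) in E10.5 WT and 50.1% ± 6.49 (n = 3) in E10.5 *Gli3-/-*. These shares overlapped between the genotypes at E9.25 and did not overlap at E10.5. Next in order at E10.5 WT were *Wnt6* (39.0 TPM), *Wnt5b* (13.3 TPM) and *Wnt7b* (11.8 TPM), and libraries of *Wnt5a* and *Wnt6* overlapped there, at 39.2 to 50.9 and 31.4 to 42.4 TPM.

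At E10.5, 11 of 50 members tested differed between *Gli3-/-* and WT anterior buds, where 4.77% of all 15654 genes tested did. *Wnt5a* rose, against 1.84% of all genes that rose. The other 10 fell, against 2.93% of all genes: the ligand *Wnt4*, the receptor *Fzd6*, the R-spondins *Rspo1*, *Rspo2* and *Rspo4*, the secreted inhibitors *Dkk1*, *Dkk2*, *Sfrp1* and *Wif1*, and the feedback inhibitor *Axin2*. The median difference of the 50 members was -0.10, beside -0.02 for all genes tested. Leaving out 1 library gave 6 to 11 calls: 7 without WT replicate 1, 6 without *Gli3-/-* replicate 1 and 7 without *Gli3-/-* replicate 3, the library high in blood markers. A single model of all 4 groups called 6, without *Wnt5a*, *Fzd6*, *Rspo2*, *Dkk2* and *Axin2* (adjusted p = 0.0558 for *Fzd6* to 0.362 for *Axin2*). Without the filter on low values *Fzd6*, *Dkk1* and *Wif1* were not called (adjusted p = 0.0775 to 0.0861), and sample quality weights called 17. Over all genes, 747 were called in the main fit, 406 in 1 model of the 4 groups and 1356 with sample quality weights.

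*Wnt5a* (chr14:28504750-28527447, mm10, plus strand), a ligand that acts largely without beta-catenin, had 39.2, 50.9, 46.2 and 50.2 TPM in the E10.5 WT libraries and 70.7, 99.7 and 99.3 TPM in *Gli3-/-*. All 3 *Gli3-/-* libraries lay above all 4 WT libraries. The difference was 0.92 ± 0.14 (adjusted p = 0.0056), a 1.89-fold rise of TPM + 1, and it was called without any single library (adjusted p = 0.00183 to 0.0283). In 1 model of the 4 groups its adjusted p was 0.0594. The gene Gm2670 overlaps *Wnt5a* on the minus strand, and whether reads were assigned by strand is not given in the sources used here.

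*Wnt4* (chr4:137277489-137299726), a ligand of the ectoderm and of joint-forming regions, moved the other way. It had 7.92, 8.37, 6.77 and 9.52 TPM in E10.5 WT and 3.52, 3.31 and 2.78 TPM in *Gli3-/-*, with no overlap. The difference was -1.12 ± 0.13 (adjusted p = 0.00196), and it was called in each of the 10 alternative fits and 7 fits without a library. Of the other ligands, *Wnt6* was 31.4 to 42.4 TPM in WT and 25.9 to 32.0 TPM in *Gli3-/-* (-0.46 ± 0.12, adjusted p = 0.067). *Wnt7b*, *Wnt3* and *Wnt9b* also had lower means in *Gli3-/-* and *Wnt10b* a higher one, with adjusted p from 0.0736 to 0.102.

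Of the receptors, *Fzd6* (chr15:39006280-39038186), a Frizzled known for planar polarity, fell from 10.6, 9.99, 7.14 and 11.7 TPM in WT to 5.71, 5.01 and 5.43 TPM in *Gli3-/-*. The groups did not overlap, and the difference was -0.75 ± 0.15 (adjusted p = 0.0255). This call was lost in 6 of the 7 fits without a library (all but the fit without WT replicate 3), with an adjusted p up to 0.0871. *Fzd8* was 4.60 to 6.01 TPM in WT and 2.41 to 4.12 TPM in *Gli3-/-*, also with no overlap, but was not called (-0.56 ± 0.16, adjusted p = 0.0837) except with sample quality weights. The other 8 receptors tested were not called and differed by -0.17 (*Fzd3*) to 0.16 (*Lrp5*), with *Fzd2* at -0.04 ± 0.09 and *Lrp6* at 0.03 ± 0.09.

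**Figure D2:**
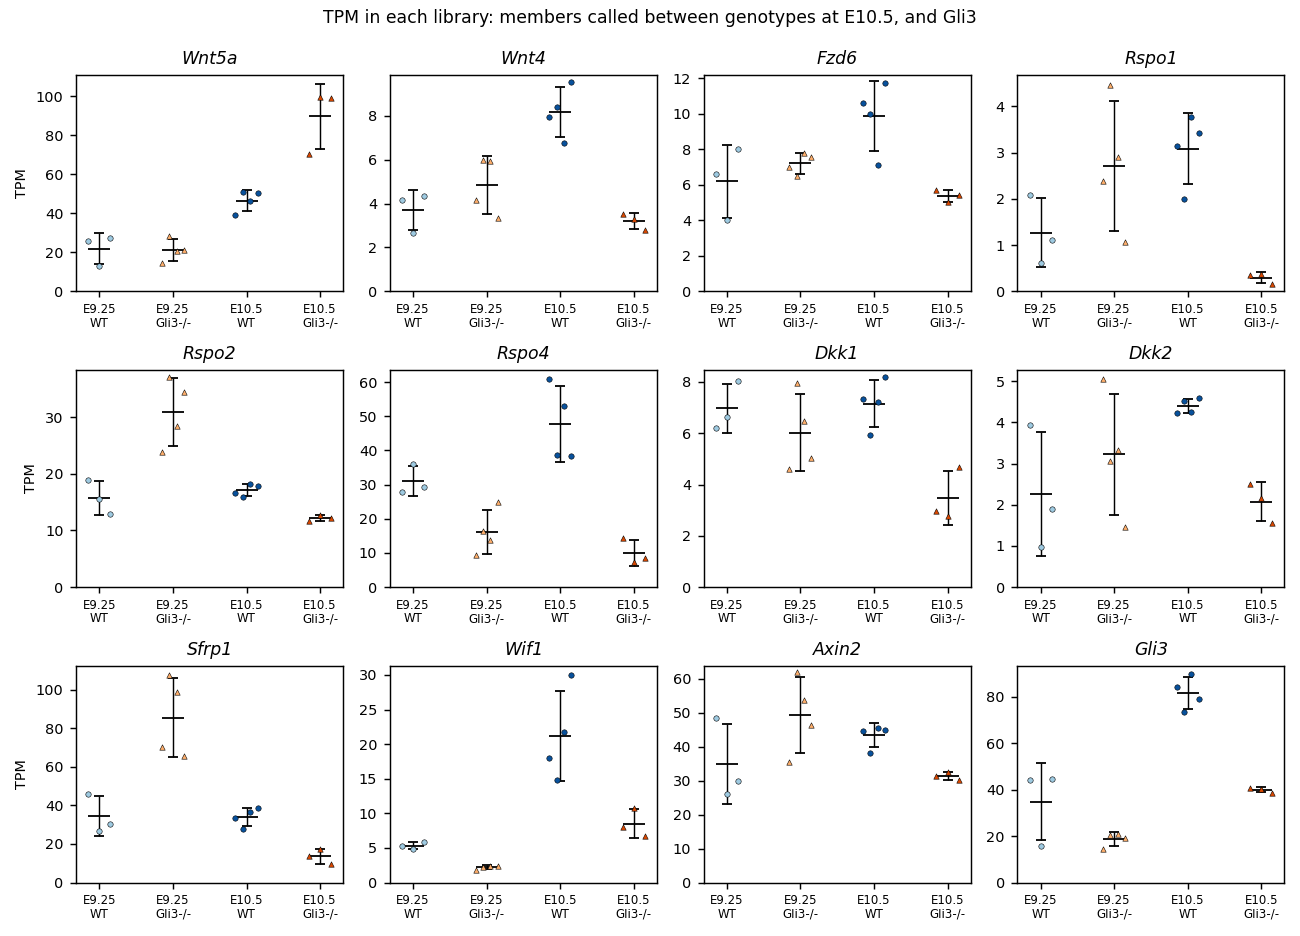
TPM (vertical axes, from 0) in each of the 14 libraries for the 11 members called between genotypes at E10.5 and for *Gli3*; points are libraries, and bars the group mean ± SD (n = 3, 4, 4 and 3 from left to right). At E10.5 the WT and *Gli3-/-* libraries do not overlap for any of these genes, while at E9.25 they overlap for *Wnt5a*, *Wnt4*, *Fzd6*, *Rspo1*, *Dkk1*, *Dkk2*, *Axin2* and *Gli3*. The 11 members were picked by the test on these same E10.5 values.

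The R-spondins, which strengthen Wnt responses at the receptor, fell in 3 of 4 cases. *Rspo4* (chr2:151842927-151874668) had 60.8, 38.7, 53.1 and 38.3 TPM in E10.5 WT and 14.3, 7.38 and 8.39 TPM in *Gli3-/-*. Every *Gli3-/-* library was below every WT library, and the difference was -2.17 ± 0.23 (adjusted p = 0.00103), the largest of any member at this stage on the log2(TPM + 1) scale. With a pseudocount of 0.1 it was -2.27, and that of *Rspo1* was larger, at -3.02. It was called in all 10 alternative fits and all 7 fits without a library.

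*Rspo1* (chr4:124986430-125009099) was low in both groups, with 3.15, 2.00, 3.78 and 3.43 TPM in WT and 0.365, 0.375 and 0.156 TPM in *Gli3-/-*. The groups were far apart relative to their spread, and the difference was -1.64 ± 0.18 (adjusted p = 0.00141), which the pseudocount understates. *Rspo2* (chr15:43020811-43170818), known for its need in limb outgrowth, had 16.5, 15.9, 18.2 and 17.8 TPM in WT and 11.6, 12.6 and 12.2 TPM in *Gli3-/-*. Its groups did not overlap, and its difference was -0.46 ± 0.09 (adjusted p = 0.0176). *Rspo2* was not called without WT replicate 1, WT replicate 3, *Gli3-/-* replicate 1 or *Gli3-/-* replicate 3 (adjusted p up to 0.0767).

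*Rspo3* did not fall with the others: it had 7.63 to 12.7 TPM in WT and 12.4 to 18.9 TPM in *Gli3-/-* (0.54 ± 0.18, adjusted p = 0.14). Summed over *Rspo1* to *Rspo4*, E10.5 WT buds had 77.7 ± 11.1 TPM (SD, n = 4) and *Gli3-/-* buds 37.2 ± 3.53 TPM (SD, n = 3). *Rspo4* made up 60.8% ± 5.54 of this sum in WT and 26.9% ± 8.96 in *Gli3-/-*, and *Rspo3* 12.8% ± 3.68 and 39.4% ± 7.81. Their receptor *Lgr4* and the ligases *Znrf3* and *Rnf43* were not called, with differences of -0.11 ± 0.09, 0.05 ± 0.11 and -0.15 ± 0.16.

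Among the secreted inhibitors, 4 of 8 tested fell and none rose. *Sfrp1* (chr8:23411502-23449632), which binds Wnts through a Frizzled-like domain, had 33.7, 27.6, 36.4 and 38.5 TPM in E10.5 WT and 13.7, 17.2 and 9.72 TPM in *Gli3-/-*. These groups were fully separate, and the difference was -1.29 ± 0.18 (adjusted p = 0.00391). *Wif1* (chr10:121033960-121100650), a secreted Wnt-binding inhibitor, had 18.1, 14.8, 21.8 and 29.9 TPM in WT and 8.03, 10.8 and 6.77 TPM in *Gli3-/-*. WT replicate 4 was the highest, and even the lowest WT library lay above the *Gli3-/-* libraries (-1.20 ± 0.22, adjusted p = 0.0168). *Wif1* lost its call without *Gli3-/-* replicate 1 or replicate 3 (adjusted p up to 0.0735).

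*Dkk1* (chr19:30545863-30549665), which blocks *Lrp5* and *Lrp6* and is itself a Wnt target, had 7.33, 5.92, 7.21 and 8.18 TPM in WT and 2.98, 2.76 and 4.70 TPM in *Gli3-/-*. *Dkk2* (chr3:132085292-132180304), of the same family, had 4.23, 4.52, 4.26 and 4.59 TPM in WT and 2.50, 2.17 and 1.56 TPM in *Gli3-/-*. Neither overlapped between genotypes, and the differences were -0.88 ± 0.17 for *Dkk1* (adjusted p = 0.0185) and -0.82 ± 0.14 for *Dkk2* (adjusted p = 0.0101). *Dkk1* was not called without WT replicate 1, WT replicate 4, *Gli3-/-* replicate 1 or *Gli3-/-* replicate 2 (adjusted p up to 0.0689), and *Dkk2* was called without any single library but not in 1 model of the 4 groups (adjusted p = 0.225). The other inhibitors *Frzb* (0.21 ± 0.10), *Notum* (-0.03 ± 0.13) and *Dkk3* (-0.0047 ± 0.19) were not called.

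Inside the cell, *Axin2* (chr11:108920349-108950783), the widely used readout of beta-catenin signaling and a scaffold of the complex that degrades beta-catenin, had 44.7, 38.1, 45.5 and 44.9 TPM in WT and 31.3, 32.5 and 30.3 TPM in *Gli3-/-*. The groups did not overlap, and the difference was -0.45 ± 0.08 (adjusted p = 0.0147). It was not called without WT replicate 1, *Gli3-/-* replicate 1 or *Gli3-/-* replicate 3 (adjusted p up to 0.0765), nor in 1 model of the 4 groups (adjusted p = 0.362). The gene Gm11670 overlaps it on the minus strand.

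Over the 10 commonly used direct feedback targets among the members, 2 fell, *Axin2* and *Dkk1*, and none rose, where 2.93% of all genes fell and 1.84% rose. Their median difference was -0.14, beside -0.02 for all genes tested. *Nkd1* (-0.35 ± 0.14, adjusted p = 0.20) and *Lef1* (-0.22 ± 0.09, adjusted p = 0.25) had lower means in *Gli3-/-* and were not called, and *Tcf7* (0.03 ± 0.07), *Notum* and *Znrf3* were near 0. In the other pathway genes, 0 of 21 transduction components were called, and 2 of the 21 had an unadjusted p under 0.05, where 19.6% of all genes had such a p. *Ror1*, a receptor for *Wnt5a*, was the only 1 of 14 alternative receptor and planar polarity genes called (-1.10 ± 0.18, adjusted p = 0.0096), and *Ror2*, its close relative, differed by 0.08 ± 0.13. Among other modulators and targets, *Cthrc1*, a secreted Wnt cofactor, fell (-0.99 ± 0.17, adjusted p = 0.0119) and *Ccnd1*, the cyclin D1 gene, rose (0.59 ± 0.06, adjusted p = 0.00109).

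Markers of cell types also differed at E10.5. The 10 surface ectoderm and apical ridge markers summed to 236 to 312 TPM in WT and 348 to 393 TPM in *Gli3-/-*, and *Fgf8*, the ridge signal, carried this difference. It rose from 50.4–69.0 to 131–171 TPM (1.36 ± 0.12, adjusted p = 0.000501), while the other 9 summed to 167 to 254 TPM in WT and 191 to 225 TPM in *Gli3-/-*, and of these *Dlx5* fell (-0.69 ± 0.12, adjusted p = 0.0122) and 8 were not called. The 6 limb mesenchyme markers summed to 802 to 958 TPM in WT and 622 to 656 TPM in *Gli3-/-*, where *Twist1*, *Msx1* and *Prrx1* fell, *Fgf10* rose, and *Tbx5* and *Pdgfra* were not called. Of the muscle progenitor markers *Met* fell, and of the somite markers *Meox2* rose. In bulk tissue, fewer cells of a type and less RNA per cell cannot be told apart, and the part of these shifts in the differences of the members was not tested.

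Promoter sequences from RefSeq (GRCm38.p6, from 250 bases before to 50 after a start) were found for 43 of the 65 members, and 4 are shown for members that fell at E10.5: both feedback targets, *Dkk1* and *Axin2*, and the 2 R-spondins with the largest falls. Capitals mark a match to CTTTGAA or CTTTGAT, letters bound by TCF/LEF factors, or to CCACCCA, the core letters of GLI motifs, searched on both strands. The windows are chr19:30549447-30549746 (minus strand) for *Dkk1*, chr11:108920099-108920398 (plus) for *Axin2*, chr4:124986180-124986479 (plus) for *Rspo1* and chr2:151842677-151842976 (plus) for *Rspo4*, each given 5′ to 3′ on the strand of the gene.
Dkk1: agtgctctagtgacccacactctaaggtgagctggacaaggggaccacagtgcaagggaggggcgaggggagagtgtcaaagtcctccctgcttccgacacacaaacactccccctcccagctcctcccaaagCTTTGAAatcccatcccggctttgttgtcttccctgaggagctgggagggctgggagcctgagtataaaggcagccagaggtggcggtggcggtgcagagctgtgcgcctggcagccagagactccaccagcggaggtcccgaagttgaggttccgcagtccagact
Axin2: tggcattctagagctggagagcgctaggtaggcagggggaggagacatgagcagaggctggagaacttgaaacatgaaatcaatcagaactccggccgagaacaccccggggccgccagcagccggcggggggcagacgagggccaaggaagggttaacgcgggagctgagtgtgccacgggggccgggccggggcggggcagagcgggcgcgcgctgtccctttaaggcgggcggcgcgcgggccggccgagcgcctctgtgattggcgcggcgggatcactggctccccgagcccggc
Rspo1: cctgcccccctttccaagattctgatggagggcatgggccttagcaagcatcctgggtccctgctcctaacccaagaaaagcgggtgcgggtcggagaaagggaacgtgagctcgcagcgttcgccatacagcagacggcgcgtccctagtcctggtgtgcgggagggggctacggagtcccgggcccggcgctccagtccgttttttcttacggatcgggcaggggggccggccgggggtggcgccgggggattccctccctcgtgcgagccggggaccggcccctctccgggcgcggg
Rspo4: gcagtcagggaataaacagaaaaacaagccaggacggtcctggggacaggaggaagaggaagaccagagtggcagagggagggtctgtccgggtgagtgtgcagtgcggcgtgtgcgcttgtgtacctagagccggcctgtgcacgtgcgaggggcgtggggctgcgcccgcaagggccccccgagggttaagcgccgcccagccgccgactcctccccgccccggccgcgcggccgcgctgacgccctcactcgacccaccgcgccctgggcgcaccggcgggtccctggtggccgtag

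Of these 4 windows, only that of *Dkk1* held a match, a TCF/LEF heptamer whose first base lay at -117 from the RefSeq start. That start lies 169 bases inside the 5′ end listed in the expression tables, and for the other 3 genes both starts coincide. TCF/LEF letters were in 3 of the 56 promoters of members (5.36%), those of *Dkk1*, *Wnt11* and *Wnt5b*, and in 8.65% of all 32851 promoters of this length. GLI core letters were in 2 of the 56 (3.57%), those of *Apc2* and *Fzd7*, and in 9.30% of all promoters. The promoters of members were richer in C and G than promoters at large, with a median GC content of 66.2% and 52.7%, and a median of 23.5 and 7 CpG dinucleotides. A match is a description of the letters, and distal sites lie outside these windows.

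At E9.25, 0 of 49 members tested were called between *Gli3-/-* and WT whole buds by limma, where 0.136% of all 14760 genes tested were (0.108% higher and 0.0271% lower). At an unadjusted p under 0.05 there were 17 members of 49, where 22.0% of all genes had such a p. The median gene stood 0.23 higher in *Gli3-/-* on the log2 scale, and the median member 0.35 higher. The number of calls depended on the fit: 1 with quantile normalization or with median-of-ratios size factors (*Wif1* in both), and 2 with sample quality weights (*Rspo2* and *Wif1*). Over all genes these fits called 30, 26 and 53, beside 20 in the main fit. In 1 model of the 4 groups 12 members were called, where 1185 of all 14760 genes were. Without WT replicate 1 there were 5 calls (*Fzd7*, *Nkd1*, *Rspo2*, *Sfrp1* and *Wnt2*), where 196 of all 14541 genes were called. Without *Gli3-/-* replicate 4 there was 1 (*Sfrp1*), and without the divergent WT replicate 2 there were 0, where 67 and 18 of all genes were called.

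On the log2(TPM + 1) scale *Sfrp1* had the largest difference among members at E9.25 (with a pseudocount of 0.1 it was 1.33, and that of *Wnt2* 1.35), with 46.0, 26.5 and 30.3 TPM in WT and 70.1, 108, 98.7 and 65.9 TPM in *Gli3-/-*. All 4 *Gli3-/-* libraries lay above all 3 WT libraries, opposite to the order at E10.5, with a difference of 1.30 ± 0.23 (adjusted p = 0.0783). *Wnt2* (chr6:17988940-18030585), a ligand of lateral plate derivatives such as lung and heart mesoderm, had 13.3, 7.68 and 6.19 TPM in WT and 19.9, 23.8, 29.7 and 16.9 TPM in *Gli3-/-*. It too did not overlap (1.26 ± 0.26, adjusted p = 0.13).

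*Rspo2* had 18.9, 15.5 and 12.9 TPM in E9.25 WT and 23.8, 37.0, 28.4 and 34.4 TPM in *Gli3-/-* (0.92 ± 0.20, adjusted p = 0.13). *Nkd1* (chr8:88521344-88594887), a feedback inhibitor that binds Dishevelled, had 38.8, 28.7 and 24.7 TPM in WT and 42.7, 66.1, 58.8 and 53.4 TPM in *Gli3-/-* (0.83 ± 0.19, adjusted p = 0.15). *Fzd8*, a receptor at low level, had 3.31, 1.93 and 2.72 TPM in WT and 4.43, 6.27, 5.35 and 4.11 TPM in *Gli3-/-* (0.73 ± 0.22, adjusted p = 0.22). In each of these the *Gli3-/-* libraries were the higher ones without overlap, and none passed the adjusted threshold. How many of all genes separate in this way was not counted. The median gene stood 0.23 higher in *Gli3-/-*, and 22.0% of all genes had an unadjusted p under 0.05 in limma's test.

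*Rspo4* and *Wif1* were lower in *Gli3-/-* already at E9.25, as values that did not pass the test. *Rspo4* had 27.8, 36.0 and 29.3 TPM in WT and 9.47, 16.5, 13.8 and 24.8 TPM in *Gli3-/-* (-0.97 ± 0.27, adjusted p = 0.21). *Wif1* had 5.27, 4.90 and 5.88 TPM in WT and 1.79, 2.21, 2.44 and 2.45 TPM in *Gli3-/-* (-0.98 ± 0.19, adjusted p = 0.095). Neither overlapped between genotypes. In the summed R-spondin TPM, the WT share of *Rspo4* was 63.5% ± 6.63 (SD, n = 3) and its *Gli3-/-* share 30.4% ± 7.06 (SD, n = 4). *Rspo2* held 32.3% ± 5.09 and 59.8% ± 2.91, while the sum itself overlapped, at 48.9 ± 4.42 and 52.0 ± 11.4 TPM.

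The remaining members called at E10.5 overlapped between genotypes at E9.25. *Wnt5a* had 25.6, 12.9 and 27.4 TPM in WT and 14.8, 28.2, 20.6 and 21.2 TPM in *Gli3-/-* (-0.01 ± 0.28, adjusted p = 0.98), and the sign of this difference turned positive without WT replicate 1, WT replicate 3 or *Gli3-/-* replicate 1. *Axin2* had 48.3, 26.2 and 29.9 TPM in WT and 35.6, 61.9, 53.8 and 46.2 TPM in *Gli3-/-* (0.51 ± 0.24, adjusted p = 0.23). *Dkk1* (-0.20 ± 0.21), *Dkk2* (0.41 ± 0.36), *Wnt4* (0.30 ± 0.24), *Fzd6* (0.23 ± 0.22) and *Rspo1* (0.67 ± 0.34) had differences within 2 standard errors of 0. The standard errors at E9.25 were larger than at E10.5 for all 11 members called at E10.5 but *Wif1*, so that a difference of the E10.5 size was harder to detect.

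Markers of several other cell types moved beside these values. *Gata4* (2.87 ± 0.35, adjusted p = 0.0128) and *Foxf1* (3.68 ± 0.43, adjusted p = 0.0125) rose at E9.25, and *Hand1*, *Gata6* and *Wt1* had higher means in *Gli3-/-* without passing the test, and *Tbx18* had a lower one. The marker sum in each WT library was 59.4, 25.9 and 24.3 TPM and in each *Gli3-/-* library 133, 197, 205 and 73.8 TPM. *Gli3-/-* replicates 2 and 3 had the 2 highest marker sums and the 2 highest values of *Sfrp1*, WT replicate 1 was the highest WT library for both, and the same holds for *Wnt2*. This order was not particular to the flank markers. The limb mesenchyme markers summed to 761, 670 and 593 TPM in WT and 571, 846, 737 and 694 TPM in *Gli3-/-*, with the same replicates highest within each genotype. *Rspo2* was highest in *Gli3-/-* replicates 2 and 4. The 5 endothelium markers summed to 53.0 to 89.8 TPM in WT and 91.9 to 143 TPM in *Gli3-/-*, and the 9 surface ectoderm and ridge markers other than *Fgf8* to 119.5 to 202 and 207 to 364 TPM, both without overlap. Of the latter, the keratin gene *Krt18* was 25.8 to 47.5 TPM in WT and 53.1 to 132 TPM in *Gli3-/-* (1.49 ± 0.31, adjusted p = 0.13). The neural tube markers summed to 6.03 to 12.5 TPM in WT and 2.77 to 4.74 TPM in *Gli3-/-*, again without overlap, and *Fgf8* (-1.31 ± 0.27, adjusted p = 0.13) and the muscle progenitor marker *Lbx1* (-1.20 ± 0.22, adjusted p = 0.08) had lower means in *Gli3-/-*. No marker of these 4 cell types was called, and the part of any of these cells in the differences of the members was not tested.

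**Figure D3:**
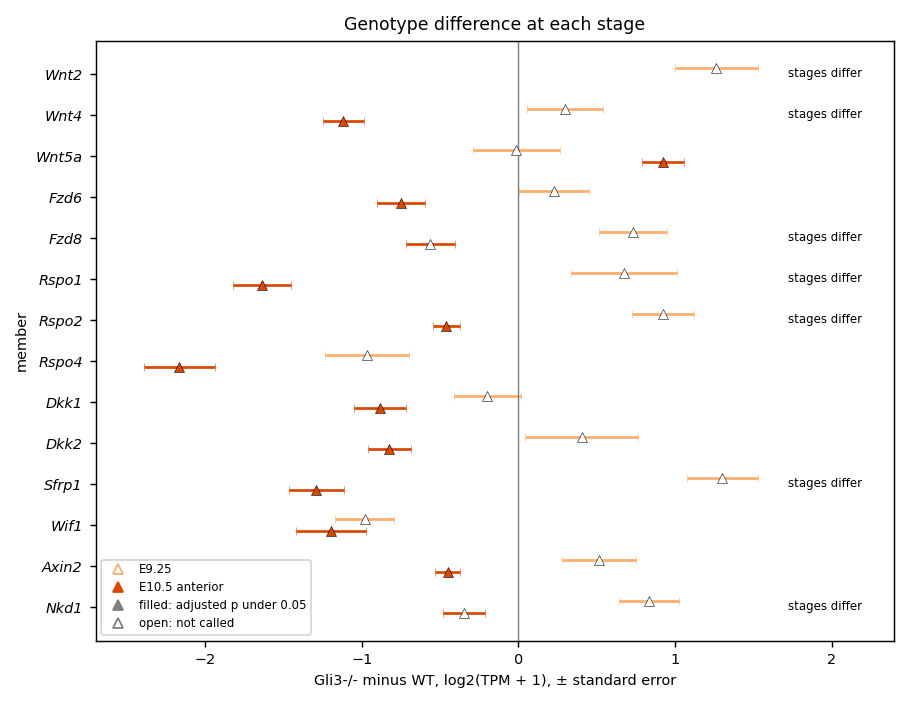
Difference *Gli3-/-* minus WT in log2(TPM + 1) ± standard error (horizontal axis) for the 14 members called in a genotype comparison or in the interaction, at E9.25 (pale, 3 and 4 libraries) and E10.5 (dark, 4 and 3 libraries); filled symbols passed the adjusted threshold. Members marked as differing between stages are the 7 whose interaction was called, and all 7 had positive values at E9.25; *Wnt2* was too low to be tested at E10.5.

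The effect of *Gli3* loss differed between the stages for 7 of 53 members tested, where the interaction was called for 2.13% of all 16368 genes. In all 7 the difference *Gli3-/-* minus WT was lower at E10.5 than at E9.25, as for 1.65% of all genes, while 0.477% had a higher difference: *Sfrp1* (-2.59 ± 0.32, adjusted p = 0.000685), *Rspo1* (-2.31 ± 0.41, adjusted p = 0.00877), *Wnt2* (-1.59 ± 0.32, adjusted p = 0.0171), *Wnt4* (-1.42 ± 0.28, adjusted p = 0.0154), *Rspo2* (-1.38 ± 0.21, adjusted p = 0.00359), *Fzd8* (-1.29 ± 0.26, adjusted p = 0.0185) and *Nkd1* (-1.18 ± 0.25, adjusted p = 0.0232). The median gene had an interaction of -0.24, and relative to it these differences ran from -2.36 for *Sfrp1* to -0.94 for *Nkd1*. Quantile normalization and median-of-ratios size factors, which centre the libraries, each called 9, the 7 again and *Wnt5a* and *Fzd10* with a positive interaction.

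*Sfrp1* and *Rspo2* were called in every alternative fit and without any single library, and so was *Rspo1*, except that it was too low to be tested with a TPM minimum of 5. *Nkd1* was not called in 8 of the 14 fits without a library, and *Fzd8*, *Wnt4* and *Wnt2* were not called without E10.5 *Gli3-/-* replicate 3, which left 3 calls. Without E9.25 WT replicate 1 there were 13 calls, all with a negative interaction. In that fit 1433 of all 16307 genes were called, beside 348 in the main fit, and the median gene had an interaction of -0.31. For *Wnt2* the value rests on E9.25, since at E10.5 it was 0.304, 0.346, 0.159 and 0.436 TPM in WT and 0.128, 0 and 0 TPM in *Gli3-/-*. *Wnt5a* had an interaction of 0.94 ± 0.34 (adjusted p = 0.16), *Axin2* -0.96 ± 0.27 (adjusted p = 0.085), *Rspo4* -1.20 ± 0.39 (adjusted p = 0.125) and *Wif1* -0.22 ± 0.29, so that for these 4 a difference between the stages was not shown.

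Markers of other cell types had interactions beside these. Of the 6 lateral plate and flank markers, 4 were called, in the same direction as the 7 members: *Foxf1* (-3.59 ± 0.50, adjusted p = 0.00179), *Gata4* (-2.99 ± 0.41, adjusted p = 0.00158), *Hand1* (-2.81 ± 0.66, adjusted p = 0.0402) and *Gata6* (-1.72 ± 0.41, adjusted p = 0.0455). So was *Krt18* (-1.74 ± 0.38, adjusted p = 0.0262), while *Fgf8* (2.67 ± 0.33, adjusted p = 0.000732), *Tubb3* of the neural tube (1.54 ± 0.33, adjusted p = 0.0231) and *Lbx1* (1.07 ± 0.26, adjusted p = 0.0445) went the other way. Their part in the interactions of the members was not tested.

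Between E9.25 whole buds and E10.5 anterior buds, 34 of 52 members tested differed in WT, 28 higher and 6 lower, where 48.7% of all genes did (38.1% higher and 10.6% lower). In *Gli3-/-*, 31 of 52 differed, 17 higher and 14 lower, where 25.0% of all genes did (15.8% higher and 9.17% lower). The median gene was 0.34 higher at E10.5 in WT and 0.06 higher in *Gli3-/-*, and the median member 0.60 and 0.03 higher. With the libraries centred by quantile normalization or by size factors, 19 or 22 members were higher and 7 or 8 lower in WT. The later buds were cut to their anterior part and the earlier ones were whole, so that stage and region cannot be told apart.

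Cell type markers shifted between the same groups. Of the lateral plate and flank markers, 4 of 5 tested fell in WT, among them *Hand1* (-2.59 ± 0.45) and *Gata6* (-2.32 ± 0.27), and 5 of 6 fell in *Gli3-/-*, among them *Hand1* (-5.40 ± 0.39), *Gata4* (-4.83 ± 0.29) and *Foxf1* (-4.44 ± 0.30). *Tbx18* rose in both. These falls stood beside that of *Wnt2* in both genotypes and that of *Sfrp1* in *Gli3-/-*. The muscle progenitor markers *Pax3* (2.83 ± 0.17 in WT and 2.94 ± 0.21 in *Gli3-/-*) and *Lbx1* (2.32 ± 0.19 and 3.39 ± 0.18) and the somite marker *Meox2* (3.01 ± 0.25 and 3.88 ± 0.19) rose. The part of these shifts in the stage differences of the members was not tested.

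The nuclear factors turned over in both genotypes. *Tcf7* and *Lef1*, which mostly act with beta-catenin as activators, fell, and *Tcf7l1* and *Tcf7l2*, of which *Tcf7l1* mostly acts as a repressor, rose. *Tcf7* had 115, 94.9 and 103 TPM in E9.25 WT and 54.7, 47.4, 52.0 and 48.8 TPM in E10.5 WT, with no overlap (-1.02 ± 0.10, adjusted p = 0.000196). *Lef1* had 125, 74.0 and 90.4 TPM and 55.97, 45.3, 57.0 and 52.4 TPM (-0.83 ± 0.17, adjusted p = 0.00516), also with no overlap. In *Gli3-/-* the falls were -1.18 ± 0.17 for *Tcf7* (adjusted p = 0.000727) and -1.38 ± 0.17 for *Lef1* (adjusted p = 0.000242).

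*Tcf7l2* rose in WT from 6.30–11.8 to 29.4–42.5 TPM (1.94 ± 0.21) and *Tcf7l1* from 14.5–26.3 to 46.6–66.9 TPM (1.49 ± 0.20), and both rose in *Gli3-/-* (1.57 ± 0.17 and 1.10 ± 0.17). The ratio of *Lef1* plus *Tcf7* to *Tcf7l1* plus *Tcf7l2* was 6.98 ± 0.988 (SD, n = 3) in E9.25 WT, 5.35 ± 0.521 (n = 4) in E9.25 *Gli3-/-*, 1.10 ± 0.116 (n = 4) in E10.5 WT and 0.895 ± 0.124 (n = 3) in E10.5 *Gli3-/-*. Every E9.25 library was at or above 4.92 and every E10.5 library was at or below 1.22, and within each stage the lowest WT library and the highest *Gli3-/-* library were close, at 6.28 and 6.09 at E9.25 and overlapping at E10.5.

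**Figure D4:**
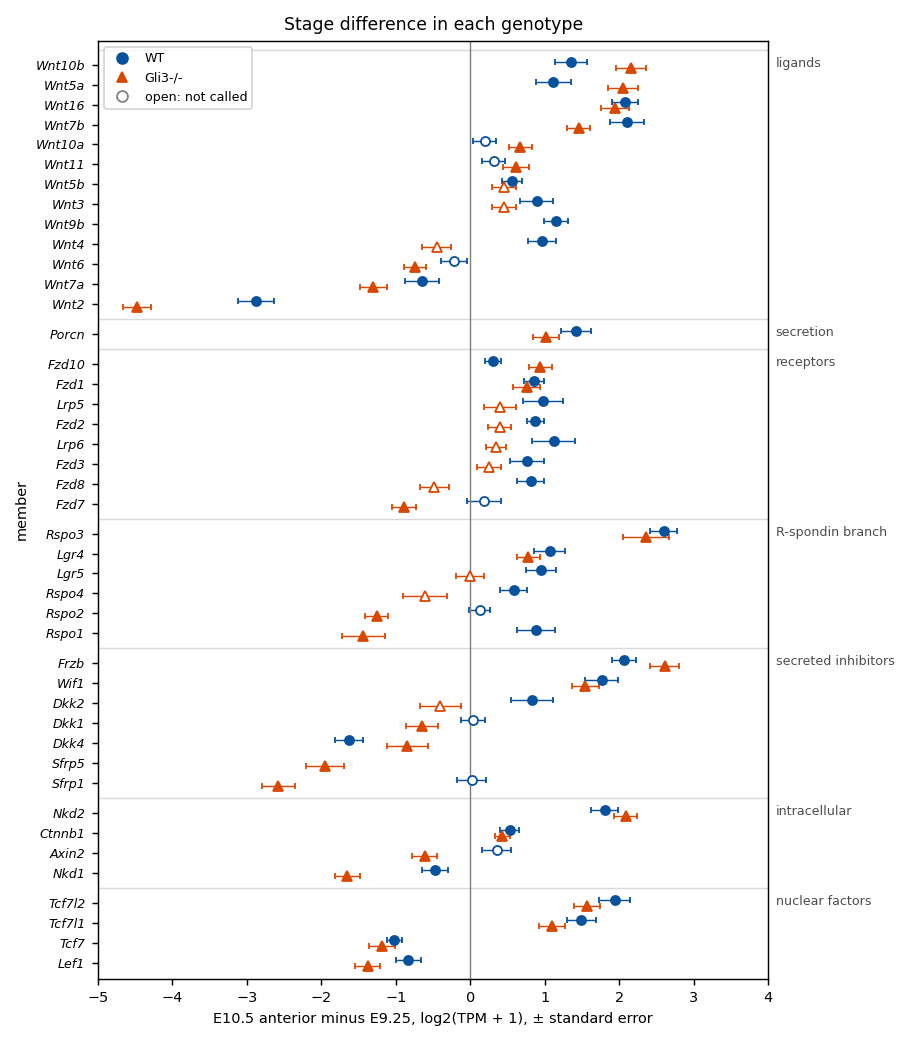
Difference E10.5 anterior minus E9.25 in log2(TPM + 1) ± standard error (horizontal axis) in WT (circles, 3 and 4 libraries) and *Gli3-/-* (triangles, 4 and 3 libraries) for every member called in either genotype, by role; filled symbols passed the adjusted threshold, and a missing symbol was not tested. *Wnt10b*, *Wnt16*, *Rspo3*, *Frzb*, *Nkd2* and *Tcf7l2* lie to the right and *Wnt2*, *Dkk4*, *Lef1* and *Tcf7* to the left in both genotypes, and *Rspo1* lies on opposite sides.

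Among the 13 ligands tested, 8 rose and 2 fell in WT, where 38.1% of all genes rose and 10.6% fell. The rises of *Wnt3* and *Wnt5b* were not called with quantile normalization, and the fall of *Wnt7a* was not called without the filter on low values. *Wnt7b*, a ligand of the ectoderm, had 1.79, 1.48 and 2.53 TPM in E9.25 WT and 11.9, 9.29, 9.50 and 16.3 TPM in E10.5 WT (2.10 ± 0.22, adjusted p = 0.000306). *Wnt16* had 0.373, 0 and 0 TPM at E9.25 and 3.43, 3.79, 3.78 and 3.78 TPM at E10.5 in WT (2.08 ± 0.17, adjusted p = 8.85e-05). *Wnt2* fell from 13.3, 7.68 and 6.19 TPM to less than 1 TPM in every E10.5 library (-2.88 ± 0.24, adjusted p = 9.77e-05). *Wnt7b*, *Wnt16* and *Wnt2* were each fully separate between the stages. *Wnt5a* rose by 1.11 ± 0.24 in WT (adjusted p = 0.0064) and by 2.05 ± 0.20 in *Gli3-/-* (adjusted p = 5.86e-05).

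In *Gli3-/-*, 6 of 12 ligands tested rose and 3 fell, where 15.8% of all genes rose and 9.17% fell. *Wnt10b*, a ligand known for roles in bone and skin, had 0.253, 0.411, 0.187 and 0.246 TPM in E9.25 *Gli3-/-* and 4.72, 3.29 and 6.49 TPM in E10.5 *Gli3-/-* (2.16 ± 0.20, adjusted p = 3.82e-05). It was also higher in E10.5 WT, with 2.44, 2.37, 2.52 and 2.93 TPM. *Wnt6* fell in *Gli3-/-* (-0.74 ± 0.14, adjusted p = 0.0041) and was 36.3 to 58.2 TPM in E9.25 WT and 31.4 to 42.4 TPM in E10.5 WT, where it was not called (-0.22 ± 0.17). *Porcn*, the acyltransferase, rose in both, by 1.42 ± 0.21 in WT and 1.02 ± 0.17 in *Gli3-/-*.

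Of the 10 receptors tested, 7 rose in WT and none fell, led by *Lrp6* (1.12 ± 0.29) and *Lrp5* (0.97 ± 0.27), where 38.1% of all genes rose and 10.6% fell. In WT, *Fzd3* and *Fzd10* were not called with quantile normalization, size factors or the replicate block, nor *Fzd8* with quantile normalization. In *Gli3-/-*, *Fzd1* (0.76 ± 0.18) and *Fzd10* (0.94 ± 0.15) rose and *Fzd7* fell (-0.89 ± 0.16), where 15.8% of all genes rose and 9.17% fell. *Fzd7* had 52.0, 23.3 and 34.02 TPM in E9.25 WT, 56.5, 85.7, 83.3 and 60.2 TPM in E9.25 *Gli3-/-*, 34.5 to 42.8 TPM in E10.5 WT and 35.2 to 40.7 TPM in E10.5 *Gli3-/-*. Only the E9.25 *Gli3-/-* libraries stood above the rest, and neither its E9.25 genotype difference (1.00 ± 0.26, adjusted p = 0.18) nor its interaction (-1.07 ± 0.30, adjusted p = 0.081) was called. *Fzd2* rose in WT (0.87 ± 0.11, adjusted p = 0.000737) and was not called in *Gli3-/-* (0.39 ± 0.15, adjusted p = 0.084).

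On the log2(TPM + 1) scale *Rspo3* had the largest rise of any member in WT, from 0.842, 0.706 and 0.734 TPM to 9.08, 12.7, 9.83 and 7.63 TPM, with a difference of 2.60 ± 0.18 (adjusted p = 5.45e-05). With a pseudocount of 0.1 its rise was 3.50 and that of *Wnt16*, which was near 0 at E9.25, was larger, at 4.497. In *Gli3-/-* it rose from 1.87, 3.27, 3.12 and 0.634 TPM to 12.9, 18.9 and 12.4 TPM (2.36 ± 0.31, adjusted p = 0.000455). Both genotypes thus reached levels well outside those of E9.25. *Rspo1* rose in WT (0.88 ± 0.26, adjusted p = 0.0219) and fell in *Gli3-/-* (-1.43 ± 0.28, adjusted p = 0.0045), and *Rspo2* fell in *Gli3-/-* (-1.26 ± 0.16, adjusted p = 0.000291) and was not called in WT (0.12 ± 0.14). The rise of *Rspo1* in WT was not called with quantile normalization, without the filter on low values, or in 5 of the 7 fits without a library.

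Of the secreted inhibitors, *Frzb*, which binds Wnts and is known from cartilage, had 9.10, 10.9 and 6.53 TPM in E9.25 WT and 36.3, 38.7, 43.2 and 39.2 TPM in E10.5 WT (2.06 ± 0.16, adjusted p = 7.56e-05). In *Gli3-/-* it went from 4.39, 8.06, 6.78 and 7.99 TPM to 51.5, 46.5 and 39.8 TPM (2.61 ± 0.19, adjusted p = 8.14e-06), the largest rise of a member there on the log2(TPM + 1) scale. With a pseudocount of 0.1 it was 2.77, and the rises of *Wnt16* (4.02), *Wnt10b* (3.70) and *Rspo3* (2.87) were larger. *Frzb* was thus several times higher at E10.5 in both genotypes. *Wif1* also rose in both, by 1.76 ± 0.22 in WT and 1.55 ± 0.18 in *Gli3-/-*, from lower and to lower levels in *Gli3-/-*.

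*Sfrp1* fell in *Gli3-/-* (-2.58 ± 0.22, adjusted p = 1.95e-05), while in WT its stage difference was 0.02 ± 0.19. As a share of the summed TPM of the Sfrp genes and *Frzb*, *Sfrp1* went from 45.8% ± 7.36 to 30.7% ± 2.28 in WT and from 63.8% ± 2.20 to 14.1% ± 1.68 in *Gli3-/-*. *Sfrp5* had 3.54, 3.39, 4.41 and 1.40 TPM in E9.25 *Gli3-/-* and 0.112, 0 and 0 TPM in E10.5 *Gli3-/-* (-1.95 ± 0.26, adjusted p = 0.000404), and in WT it had 2.41, 2.05 and 0.868 TPM at E9.25 and was listed at 0 in all 4 E10.5 libraries. *Dkk4*, a *Dkk1* relative, had 3.57, 2.22 and 2.21 TPM in E9.25 WT and 0.267, 0, 0.122 and 0.310 TPM in E10.5 WT (-1.63 ± 0.19, adjusted p = 0.000455). It also fell in *Gli3-/-* (-0.85 ± 0.27, adjusted p = 0.0465), a call lost in 4 of the 7 fits without a library, and its interaction was not called (0.78 ± 0.36, adjusted p = 0.23).

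The feedback inhibitors *Nkd1* and *Nkd2*, which are paralogs, went opposite ways. *Nkd2* rose in WT from 8.90, 7.94 and 7.01 TPM to 29.8, 22.1, 35.3 and 35.5 TPM (1.80 ± 0.18, adjusted p = 0.000225) and in *Gli3-/-* from 4.82, 6.499, 6.41 and 6.12 TPM to 28.8, 33.2 and 24.01 TPM (2.09 ± 0.15, adjusted p = 8.56e-06). *Nkd1* fell in *Gli3-/-* from 42.7, 66.1, 58.8 and 53.4 TPM to 16.2, 20.03 and 14.4 TPM (-1.65 ± 0.16, adjusted p = 6.54e-05). In WT its fall was smaller (-0.47 ± 0.17, adjusted p = 0.0472) and was called in 1 of the 7 fits without a library. Paralogs can share reads, and how such reads were counted is not given in the sources used here. *Ctnnb1* rose in both genotypes, by 0.53 ± 0.12 in WT (adjusted p = 0.00904, but 0.22 and not called with median-of-ratios size factors) and 0.43 ± 0.10 in *Gli3-/-* (adjusted p = 0.0115).

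**Figure D5:**
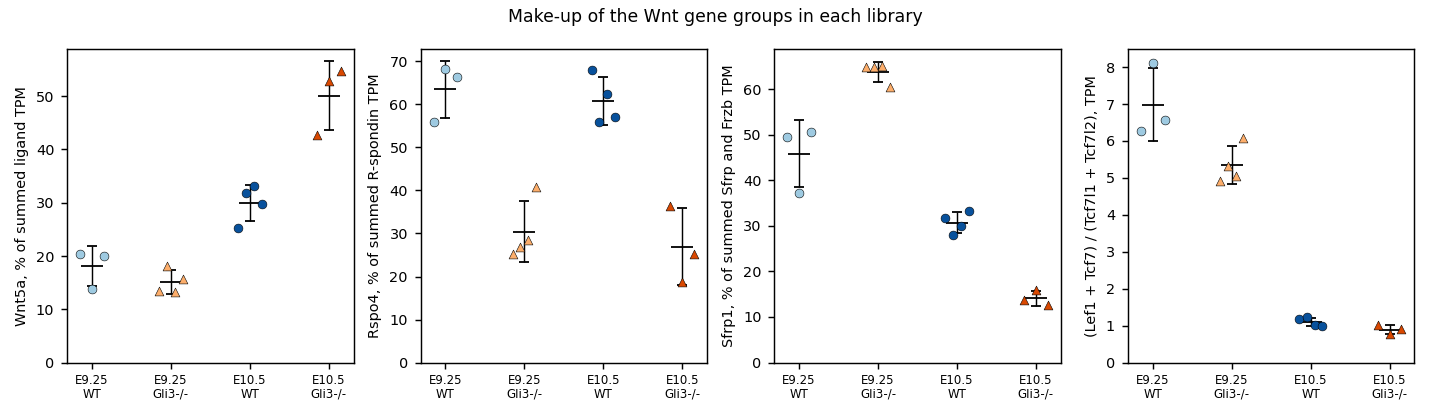
Per-library make-up of 4 gene groups (vertical axes, from 0): *Wnt5a* as a percent of summed ligand TPM, *Rspo4* as a percent of summed R-spondin TPM, *Sfrp1* as a percent of summed Sfrp and *Frzb* TPM, and the ratio of *Lef1* plus *Tcf7* to *Tcf7l1* plus *Tcf7l2*. Points are libraries, and bars the mean ± SD of 3, 4, 4 and 3 libraries; *Rspo4* held 55.9% to 68.2% in all WT libraries and 18.8% to 40.8% in all *Gli3-/-* libraries.

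Of the 10 direct feedback targets, 2 rose (*Lgr5* and *Nkd2*) and 3 fell (*Lef1*, *Nkd1* and *Tcf7*) in WT, where 38.1% of all genes rose and 10.6% fell. These 5 of 10 are close to the 48.7% of all genes called in WT. In *Gli3-/-*, 1 rose (*Nkd2*) and 5 fell (*Axin2*, *Dkk1*, *Lef1*, *Nkd1* and *Tcf7*), where 15.8% of all genes rose and 9.17% fell. Their medians were 0.19 and -0.45, beside 0.34 and 0.06 for all genes tested. *Axin2* was 0.35 ± 0.19 higher at E10.5 in WT, without a call, and fell by 0.61 on the log2 scale in *Gli3-/-* (SE 0.17, adjusted p = 0.0236). That fall was not called without E9.25 *Gli3-/-* replicate 3 or without any of the 3 E10.5 *Gli3-/-* replicates. The fall of *Dkk1* in *Gli3-/-* (adjusted p = 0.0472) was called in 2 of the 7 fits without a library. *Lgr5* was low in WT, with means of 0.263 TPM at E9.25 and 1.44 TPM at E10.5. Its rise was not called with quantile normalization or without E10.5 WT replicate 1, 3 or 4.

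Of 5 other targets tested outside the members, from a list chosen by role, 3 fell in both genotypes: *Sp5*, a beta-catenin target (-0.69 ± 0.16 in WT and -1.04 ± 0.16 in *Gli3-/-*), *Myc* (-1.66 ± 0.17 and -2.06 ± 0.15) and *Cdx1* (-3.69 ± 0.21 and -3.82 ± 0.19). *Cd44* rose in *Gli3-/-* (0.70 ± 0.20, adjusted p = 0.0253). In WT, 14 of 21 transduction components and 10 of 14 alternative receptor and planar polarity genes rose and none fell. In *Gli3-/-*, 1 of 21 and 2 of 14 rose and 1 of the 14, *Ror1*, fell (-0.92 ± 0.17, adjusted p = 0.00353). Of all genes, 38.1% rose and 10.6% fell in WT, and 15.8% rose and 9.17% fell in *Gli3-/-*. Medians of the transduction components were 0.55 in WT and 0.19 in *Gli3-/-*. Those of the alternative receptor and planar polarity genes were 0.60 and 0.25, beside 0.34 and 0.06 for all genes tested.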

How the data were processed

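RNA-seq libraries were made from pooled forelimb buds of WT and *Gli3-/-* embryos at E9.25 (n = 3 and 4) and from anterior forelimb buds at E10.5 (n = 4 and 3). The authors deposited 1 gene table per library with coverage, FPKM and TPM, and the submitters' processing notes name the build mm10. The study aligned reads with HISAT2. The tool and annotation behind the tables, and whether reads were assigned by strand, are not given in the sources used here. The deposited TPM were the values compared. The deposited coverage and FPKM served only to estimate depth, as coverage over FPKM with reads of 100 bases. The tables hold no counts, so no count model was run.

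Members were taken by a rule on gene symbols, and members and lists were chosen with earlier results of these data known. Tests were two-sided and run on log2(TPM + 1) by limma 3.58.1 under R 4.3.3, with a trended eBayes prior, over genes that reached a TPM of 1 in 3 or more of the libraries being compared, in a separate fit for each comparison of 2 groups and in 1 fit of 14 libraries for the interaction. P-values were adjusted over all genes tested, and the code was tested on simulated data. Adjusted p-values throughout are limma's. Values in every library were given for members called between genotypes or in the interaction, for the 2 highest of each role, for the 4 largest changes per direction between stages, and for *Wnt5a*; the 31 members that meet this rule include some given by range only. Other members were named to complete a role after their values were seen. Pearson's r between replicates across genes ran from 0.975 to 0.992, and no 2 libraries held the same values. Alternatives were another pseudocount, no filter or a TPM of at least 5, sample quality weights, quantile normalization, a prior with no trend, a block for the replicate number, size factors by the median of ratios, 1 model of the 4 groups, removal of a trend over gene span, thresholds of 0.01 and 0.1, and leaving out each library. Shares and ratios of TPM were described without a test. Lack of overlap between libraries was described in the same way, and how many of all genes do not overlap was not counted. For members called between genotypes at E10.5, it concerns the same values that the test used. All 65 members overlap the RefSeq GRCm38.p6 gene of the same symbol.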

Additional observations from a re-analysis of the deposited data

Results flagged for a closer look

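For 7 members the difference between *Gli3-/-* and WT was not the same at both stages by the interaction test of limma. On the log2 scale, the E10.5 difference minus the E9.25 difference was -2.59 for *Sfrp1*, -2.31 for *Rspo1*, -1.59 for *Wnt2*, -1.42 for *Wnt4*, -1.38 for *Rspo2*, -1.29 for *Fzd8* and -1.18 for *Nkd1*. Region differed along with stage, so that they cannot be told apart.

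Among 62 groups of 4 libraries examined in the members described, 2 had a library far from the others, where chance gives about 1 in 20. *Wnt16* was 3.43 TPM in E10.5 WT replicate 1 and 3.78 to 3.79 TPM in the other replicates, a small gap in a group with hardly any spread. *Axin2* was 38.1 TPM in E10.5 WT replicate 2 and 44.7 to 45.5 TPM in the others, and still above all E10.5 *Gli3-/-* libraries.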

How the results depend on the processing

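Between genotypes at E9.25, where 0 members were called, quantile normalization and median-of-ratios size factors each gave 1, sample quality weights 2, 1 model of the 4 groups 12 and a threshold of 0.1 2, and leaving out a library gave 0 to 5. At E10.5, with 11 called, sample quality weights gave 17, 1 model of the 4 groups 6 and a threshold of 0.01 5, and leaving out a library gave 6 to 11. Leaving out a library gave 27 to 34 calls between stages in WT (34) and 23 to 33 in *Gli3-/-* (31), and no other alternative moved these counts by over 1.5 times. The interaction, with 7, gave 12 with sample quality weights, 3 at a threshold of 0.01, 12 at 0.1 and 3 to 13 without a library. Calls over all genes moved as well. At E9.25 they went from 20 to 1185 in 1 model of the 4 groups. At E10.5 they went from 747 to 1356 with sample quality weights and to 406 in 1 model of the 4 groups. In the interaction they went from 348 to 830 with sample quality weights and to 1433 without E9.25 WT replicate 1. The replicate block gave 1 call at E9.25 (*Sfrp1*), 4 at E10.5 (*Wnt5a*, *Wnt4*, *Rspo1* and *Rspo4*) and 3 in the interaction. Deviations of same-numbered libraries correlated at a mean r of -0.168 at E9.25 and -0.053 at E10.5. Between libraries of different number the mean r was 0.0551 and 0.0179. The E10.5 *Gli3-/-* numbers, also in the block, are those of the sample titles (1 to 3), while the paper's Reporting Summary numbers these libraries 2 to 4. Taken in order by those numbers, their r with E10.5 WT replicates 2, 3 and 4 was 0.0504, 0.292 and 0.171. Whether the numbers pair the E10.5 samples was thus not settled. Signs turned only in uncalled E9.25 differences: *Wnt5a* to 0.128, 0.173 and 0.138 without WT replicate 1, WT replicate 3 or *Gli3-/-* replicate 1 (range without a library -0.344 to 0.173), *Fzd6* to -0.0399 with quantile normalization and -0.0137 without WT replicate 2 (range -0.0137 to 0.413), and *Dkk2* to -0.0251 and *Wnt4* to -0.0023 with sample quality weights. The cause of these changes was not tested. Over the members described, 1166 alternative values kept direction and side of the threshold, 113 lost the call, 17 gained it and 7 turned sign. Fits that leave an arm with 2 libraries rest on the spread pooled over genes and groups, and depth limits members near a TPM of 1.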
